A study of Rattus norvegicus with 25 samples.

Results

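Arc, Bdnf and Homer1, 3 genes whose products act at the synapse after neuronal activity, were followed in the rat hippocampus after the forced swim test (FST). They were taken by identifier, ENSRNOG00000043465 for Arc, ENSRNOG00000047466 for Bdnf and ENSRNOG00000047014 for Homer1, and all 3 were present among the 32623 genes quantified. The symbols are those paired with the identifiers in the definition of this gene group, and no table at hand gives an Ensembl identifier with a symbol for these genes or for cell type markers, so neither the names nor the markers of hippocampal cell types were checked against an annotation. The question was how these transcripts stood shortly after the swim and a day later, relative to rats that did not swim.

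Poly(A) RNA was sequenced from hippocampi of male Sprague Dawley rats, each library coming from 1 animal. The control group (6 rats) did not undergo the FST, the 20-m group (7 rats) was decapitated 20 min after it, and the 24-h group (6 rats) was decapitated 24 h after it. Per the study's methods, both swim groups had also swum in a pretest on the day before the test. Strain, sex, tissue and RNA fraction were common to the 3 groups, and no source used here gives the age of the rats. The 25 libraries stood for 19 rats, because 3 rats (10, 21 and 27) were sequenced in 3 runs each, and these runs were summed. Between 6217600 and 9032924 fragments per rat were assigned to genes, and the labels divide the libraries into 5 batches. Batch 1 held 3 rats of every group, batch 2 held 3 rats of the 20-m group, 3 of the 24-h group and 1 control, and batches 3 to 5 held the repeated runs of 1 rat of the 20-m group and 2 controls.

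Arc, Bdnf and Homer1 are activity-regulated genes with different roles. Bdnf encodes brain-derived neurotrophic factor, a secreted ligand of the TrkB receptor, and its transcripts arise from several alternative promoters that join a common coding exon. Homer1 encodes a postsynaptic scaffold that links metabotropic glutamate receptors to intracellular partners. Its short form, Homer1a, is the one known to be induced by activity. Arc encodes a cytoskeleton-associated protein whose messenger RNA travels to dendrites and which takes part in the removal of AMPA-type glutamate receptors from the synaptic membrane. All 3 are widely used in the hippocampus as readouts of plasticity, and Arc is usually grouped with the immediate early genes.

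The upstream sequences of Bdnf and Homer1 are given because the gene-level counts below add up transcripts from all start sites of a gene. The RefSeq promoter table (build GRCr8) listed 6 start sites for Bdnf and 1 for Homer1, and none for Arc. The 250 bases before each site were searched on both strands for CRE (TGACGTCA), the CRE core (CGTCA, which is also part of CRE), AP-1 (TGACTCA), the TATA box (TATAAA), the EGR site (GCGGGGGCG) and the serum response element by its name, the CArG box. Bdnf start site 4 (chr3:116637608-116637857, plus strand) held the CRE core 35 to 31 bases upstream, in capitals below. Bdnf start site 1 (chr3:116619383-116619632, plus strand) held no exact match to the motifs and is set beside it. Variant forms of a motif would not be found by this search. Homer1 (chr2:26278762-26279011, plus strand) held the letters of the TATA box on the minus strand, 223 to 218 bases upstream, also in capitals.
Bdnf start site 4: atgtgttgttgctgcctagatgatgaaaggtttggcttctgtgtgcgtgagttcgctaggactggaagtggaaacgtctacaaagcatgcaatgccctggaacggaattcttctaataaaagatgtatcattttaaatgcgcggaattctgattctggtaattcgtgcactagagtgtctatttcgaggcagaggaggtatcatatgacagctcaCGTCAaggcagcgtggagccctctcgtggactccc
Bdnf start site 1: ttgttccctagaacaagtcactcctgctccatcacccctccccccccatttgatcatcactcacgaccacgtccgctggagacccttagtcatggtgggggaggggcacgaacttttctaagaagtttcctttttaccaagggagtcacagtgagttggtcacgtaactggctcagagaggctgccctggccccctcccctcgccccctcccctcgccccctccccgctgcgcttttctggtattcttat
Homer1 start site: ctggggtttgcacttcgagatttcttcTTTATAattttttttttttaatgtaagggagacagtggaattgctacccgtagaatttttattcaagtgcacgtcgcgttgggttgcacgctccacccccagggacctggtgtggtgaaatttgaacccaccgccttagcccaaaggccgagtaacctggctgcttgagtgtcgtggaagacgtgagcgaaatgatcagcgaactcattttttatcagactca
Among 33465 windows of the same length in the table, 18.2% held the CRE core, 12.9% the TATA box, 4.05% AP-1, 2.45% the EGR site, 1.59% CRE and 1.497% the CArG box. Of the other 4 Bdnf windows, start site 2 held the TATA box letters on the minus strand and the remaining 3 held none of the motifs. These matches describe letters in a window, and the deposited values are sums over all transcripts of a gene, so no level can be assigned to a start site.

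All 3 genes were well detected. Estimated counts per rat ran from 381 to 942 for Arc, from 225 to 499 for Bdnf and from 168 to 361 for Homer1. Levels of different genes were compared only as TPM (transcripts scaled to a common total, which accounts for transcript length). Over the 19 rats the mean was 37.4 ± 9.32 TPM (SD) for Arc, 27.6 ± 4.51 for Homer1 and 16.6 ± 2.93 for Bdnf, which placed them above 78.8%, 71.5% and 57.2% of the 13908 genes tested. Arc stood above Bdnf in 19 of 19 rats and Homer1 stood above Bdnf in 19 of 19 rats. The order of Arc and Homer1 was less regular, with Arc above in 16 of 19 rats, including 7 of 7 rats of the 20-m group, 5 of 6 of the 24-h group and 4 of 6 controls. The 95% credibility bounds that RSEM gave for the TPM of the 16 rats with 1 run had a median half-width of 8.003% of the value for Arc, 10.2% for Bdnf and 15.5% for Homer1.

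Bdnf, the secreted ligand, separated the 2 swim groups from each other. In TMM-normalized CPM (read counts scaled for library size and composition), the 7 rats of the 20-m group ran from 49.9 through a median of 59.1 to 63.3 CPM. The 6 rats of the 24-h group ran from 29.4 through 44.4 to 47.6 CPM, and the 6 controls ran from 40.2 through 49.9 to 54.4 CPM. Every rat of the 20-m group was above every rat of the 24-h group, a pattern shown by 0.288% of the genes tested. Controls overlapped with both: 5 of 7 rats of the 20-m group lay above all controls, and 2 of 6 rats of the 24-h group lay below all controls.

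Homer1, the scaffold gene, lay in the opposite order. Its CPM ran from 23.3 through 29.4 to 36.9 in the 20-m group, from 30.9 through 36.6 to 45.1 in the 24-h group and from 26.5 through 33.2 to 39.9 in controls. In CPM 5 of 7 rats of the 20-m group were below all rats of the 24-h group, and both groups overlapped with the controls. Arc, the dendritic transcript, had the widest spread of the 3 genes. Its CPM ran from 67.7 through 78.0 to 102.6 in the 20-m group, from 62.4 through 93.7 to 122.9 in the 24-h group and from 60.2 through 66.7 to 103.6 in controls, so all 3 groups overlapped. The biological coefficient of variation that edgeR fitted was 19.8% for Arc, 13.5% for Homer1 and 12.3% for Bdnf, against a median of 12.1% over all genes tested.

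**Figure D1:**
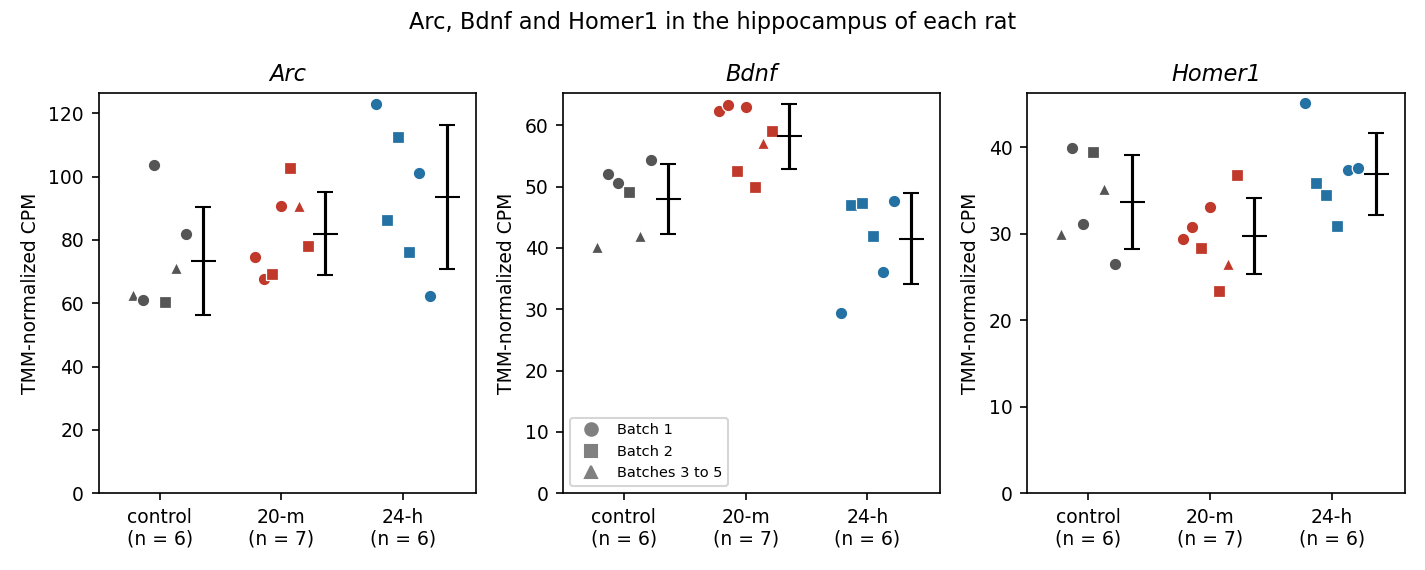
TMM-normalized CPM (vertical axes, starting at 0) of Arc, Bdnf and Homer1 in each rat, by group, with marker shape for the batch and bars for the mean ± SD. The Bdnf values of the 7 rats of the 20-m group, 49.9 to 63.3 CPM, all lie above the 6 rats of the 24-h group, 29.4 to 47.6 CPM, while Arc and Homer1 overlap between the groups.

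The comparison of the 2 times after the swim gave the widest difference for Bdnf. Its mean was 58.2 ± 5.29 CPM (SD, n = 7) at 20 min, compared with 41.5 ± 7.45 CPM (SD, n = 6) at 24 h. The log2 fold change was 0.52 ± 0.105 (standard error), a ratio of 1.43 with a 95% interval from 1.23 to 1.67, and ranked 17th by p among 13908 genes (edgeR quasi-likelihood test with batch as a term, unadjusted p = 9.62e-05, Benjamini-Hochberg adjusted p = 0.0787). It therefore missed the threshold for a call, which required both a fold over 1.5 and p under 0.05 after adjustment. An exact permutation test of Bdnf alone, over the rats of both groups and 2-sided, gave p = 0.000583, the smallest that 1716 arrangements allow, and p = 0.005 with labels exchanged only within batches, the smallest that 400 allow. The adjusted p of Bdnf passed under DESeq2 (0.00239), under voom, ComBat and limma (0.0111) and without a filter on low counts (0.0464). It also passed in limma with the runs kept apart, the rat as the replicate block and batch as a term (0.0273). The log2 fold changes in these 4 settings lay between 0.52 and 0.53, still under the fold threshold. These settings called 30, 48, 9 and 19 genes in all, in the order given, against 5 in the main fit. In the other 10 of 14 settings the adjusted p of Bdnf did not pass. In edgeR it was 0.397 with only the 2 groups compared, 0.197 in batches 1 and 2 alone and 0.160 without a batch term.

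Homer1 was lower and Arc did not separate between the same groups. Homer1 averaged 29.8 ± 4.40 CPM (SD, n = 7) at 20 min, compared with 36.9 ± 4.71 CPM (SD, n = 6) at 24 h, a log2 fold change of -0.30 ± 0.115 (95% interval -0.54 to -0.06, edgeR adjusted p = 0.277). The exact permutation test of Homer1 gave p = 0.0146, and p = 0.03 within batches. Arc stood at 82.0 ± 13.03 CPM (SD, n = 7) against 93.5 ± 22.8 CPM (SD, n = 6), with a log2 fold change of -0.18 ± 0.162 (95% interval -0.52 to 0.15, edgeR adjusted p = 0.630). None of the 3 genes was among the 5 genes called in this comparison, 0.036% of those tested. At an unadjusted p under 0.05, Bdnf was among the 7.2% of genes that were higher in the 20-m group and Homer1 among the 6.64% that were lower, so passing that mark was common.

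The contrast between Bdnf and Homer1 was also present in TPM, which RSEM had computed without TMM scaling. Bdnf TPM ran from 17.4 to 20.8 in the 20-m group and from 9.60 to 16.3 in the 24-h group, again without overlap, as for 0.0575% of genes. Homer1 TPM ran from 20.8 to 26.97 in the 20-m group and from 27.5 to 37.3 in the 24-h group. On this scale every rat of the 20-m group was below every rat of the 24-h group for Homer1 too, which 0.288% of genes showed, whereas its CPM overlapped. In CPM 0.137% of genes lay fully below and 0.288% fully above, so full separation below was commoner in TPM and full separation above rarer. On log2(TPM + 1) the limma fold change of Bdnf was 0.44 (adjusted p = 0.196). The ratio of Bdnf to Homer1 TPM within a rat, which does not depend on library scaling, ran from 0.661 through a median of 0.774 to 0.850 in the 20-m group, from 0.257 through 0.529 to 0.554 in the 24-h group, and from 0.455 through 0.530 to 0.863 in controls. The swim groups did not overlap in this ratio, and the controls overlapped with both.

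Within batches the differences kept their sign but not their size. For Bdnf, the 20-m group exceeded the 24-h group by 0.76 on the log2 scale in batch 1 and by 0.24 in batch 2, each with 3 rats against 3. The lowest Bdnf value of the study, 29.4 CPM in rat 13 of the 24-h group, was in batch 1, and without rat 13 the fitted log2 fold change was 0.42 (edgeR adjusted p = 0.116). Rat 13 also had the highest Arc (122.9 CPM) and the highest Homer1 (45.1 CPM) of the 19 rats. For Homer1 the difference was -0.36 in batch 1 and -0.22 in batch 2, and for Arc -0.25 and -0.14. The fitted value of Homer1 was -0.23 without rat 13 (edgeR unadjusted p = 0.0596), and that of Arc ran from -0.29 without rat 19 to -0.09 without rat 13, with -0.11 without rat 15.

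In the comparison of the 20-m group with controls, none of the 3 synaptic genes was called. The 6 genes that edgeR called were 0.0431% of those tested. Bdnf stood at 58.2 CPM against 48.0 ± 5.72 CPM (SD, n = 6) in controls, a log2 fold change of 0.25 ± 0.105 (95% interval 0.03 to 0.47, edgeR adjusted p = 0.639). Its exact permutation test gave p = 0.00874, and p = 0.00417 within batches, the smallest that 240 arrangements allow. At an unadjusted p under 0.05 Bdnf was among the 3.91% of genes higher in the 20-m group. On the log2 scale batch 1 gave 0.26, batch 2 gave 0.13 and the merged batches 3 to 5 gave 0.48. On log2(TPM + 1) the limma value was 0.16 (unadjusted p = 0.205), and in TPM 1 of 7 rats of the 20-m group, at 20.8, lay above the highest control, at 20.34. The unadjusted mark was also missed in edgeR when rat 1, 2 or 10 of the 20-m group or control rat 21 or 25 was left out, with values from 0.19 without rat 10 to 0.24 without rat 25. In batches 1 and 2 alone the value was 0.18 (edgeR unadjusted p = 0.161), and in batch 1 alone 0.26 (edgeR unadjusted p = 0.0863). With only the first run of rats 10, 21 and 27 it was 0.19 (edgeR unadjusted p = 0.0831).

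Arc and Homer1 did not separate from controls at 20 min. Arc stood at 82.0 CPM against 73.4 ± 16.99 CPM (SD, n = 6) in controls, with a log2 fold change of 0.17 ± 0.167 (95% interval -0.18 to 0.52, edgeR adjusted p = 0.878). Batch 1 gave an Arc difference of -0.06, batch 2 gave 0.44 and the merged batches 3 to 5 gave 0.45, so its sign was not the same in every batch. Homer1 stood at 29.8 CPM against 33.7 ± 5.39 CPM (SD, n = 6), with a log2 fold change of -0.19 ± 0.118 (95% interval -0.44 to 0.06, edgeR adjusted p = 0.777), and its differences within the batches were -0.04, -0.44 and -0.29. The exact permutation tests gave p = 0.262 for Arc and p = 0.181 for Homer1. With 1 rat left out, the Arc value ran from 0.10 without control rat 25 to 0.30 without control rat 24, with 0.10 also without rat 10 and 0.11 without control rat 22. The Homer1 value ran from -0.27 without control rat 28 to -0.10 without control rat 25.

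Fos, the AP-1 subunit used as the classical marker of neuronal activation, had a log2 fold change of 1.25 between the same groups (edgeR adjusted p = 0.0852). Its values bear on Arc because both are immediate early genes. The 95% interval of Arc, -0.18 to 0.52, did not reach that of Fos, 0.74 to 1.77. Fos was among the genes that the study called in this comparison on these same rats, so its value is not an independent reference.

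After 24 h, again, none of the 3 genes was called against controls. edgeR called 0 genes of 13908 (0%), with 441 at an unadjusted p under 0.05, and DESeq2 and limma voom also called 0. Bdnf had a log2 fold change of -0.27 ± 0.116 (95% interval -0.51 to -0.03), which put it among the 1.33% of genes lower in the 24-h group at an unadjusted p under 0.05 (edgeR adjusted p = 1.00). Without rat 13 of the 24-h group the Bdnf value was -0.16 (edgeR unadjusted p = 0.105), and the unadjusted mark was also missed without rat 18 (-0.21) and without control rat 22 (-0.26), 25 (-0.28) or 28 (-0.23). The exact permutation test gave p = 0.132 over all rats and p = 0.025 within batches, and the differences within batches were -0.50 in batch 1 and -0.12 in batch 2. Arc had a log2 fold change of 0.36 ± 0.180 (95% interval -0.02 to 0.73, edgeR adjusted p = 1.00), with an exact permutation p = 0.104 and differences of 0.19 and 0.58 within the batches. Homer1 had a log2 fold change of 0.11 ± 0.127 (95% interval -0.16 to 0.37, edgeR adjusted p = 1.00), with an exact permutation p = 0.284, and its differences, 0.31 in batch 1 and -0.23 in batch 2, had opposite signs. The Homer1 value was 0.02 without control rat 28, 0.03 without rat 13, 0.06 without control rat 24, 0.16 without control rat 22 and 0.21 without control rat 25. Batch 2 held a single control, so its value rests on that rat. Both swim groups were set against the same 6 controls. In bulk tissue fewer cells of a type and less RNA per cell cannot be told apart, for any of these differences.

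**Figure D2:**
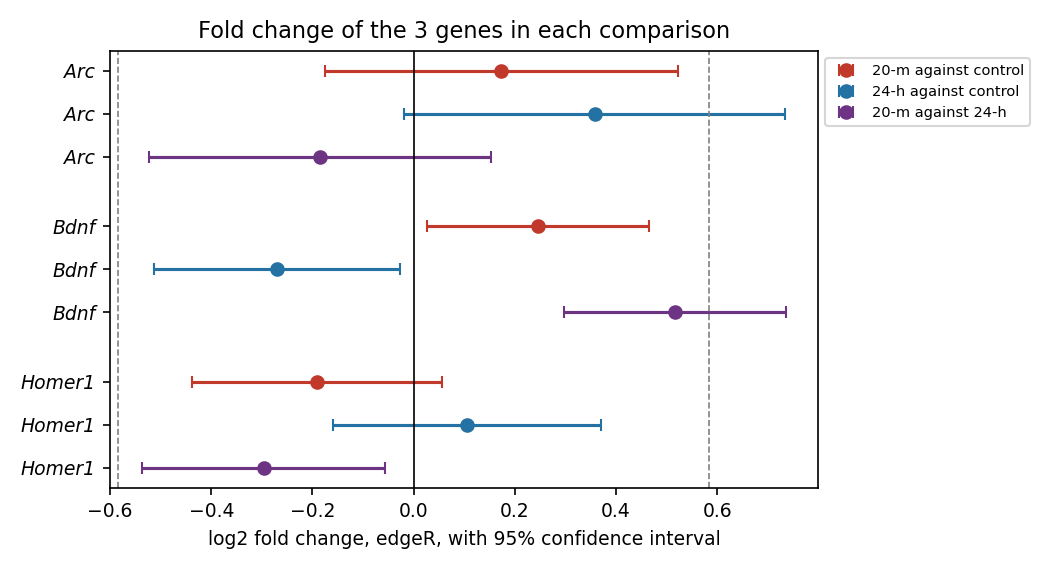
Log2 fold change (horizontal axis) of Arc, Bdnf and Homer1 in the 3 comparisons, as points with the 95% confidence interval from edgeR. With all rats, the intervals of Bdnf exclude 0 in each comparison, at 0.25, -0.27 and 0.52, and that of Homer1 between the 20-m and the 24-h group. The first 2 of Bdnf and that of Homer1 include 0 when certain single rats are left out. The first 2 of Bdnf also miss an unadjusted p under 0.05 in certain processing alternatives. Dashed lines mark a 1.5-fold change in either direction.

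The mean transcript length that RSEM gave for a gene, weighted by the estimated abundance of its transcripts, was examined because it moves when the mixture of isoforms moves. The annotation behind the files listed 2 transcripts for Arc, 8 for Bdnf and 3 for Homer1. Over the 19 rats the length ranged from 3009 to 3024 bases for Arc, from 3995 to 4076 bases for Bdnf and from 1493 to 1749 bases for Homer1. Homer1 thus had the widest range relative to its length. The lengths of its 3 listed transcripts were not at hand, so this mean cannot be read as a share of Homer1a. The mean Homer1 length was 1652 bases at 20 min, 1670 bases at 24 h and 1649 bases in controls.

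No difference in length between groups passed the test. Over the 9 comparisons of a gene between 2 groups, the exact permutation p lay between 0.125 and 0.953. For Homer1 the difference between the 20-m group and controls was 2.96 bases (exact permutation p = 0.953), while the 3 runs of control rat 21 alone ran from 1550 to 1822 bases. Those runs held 50 to 69 Homer1 counts each, fewer than the 168 to 361 of a whole rat, and the SD of the length between rats was 24.5 bases at 20 min, 75.4 bases at 24 h and 82.6 bases in controls.

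**Figure D3:**
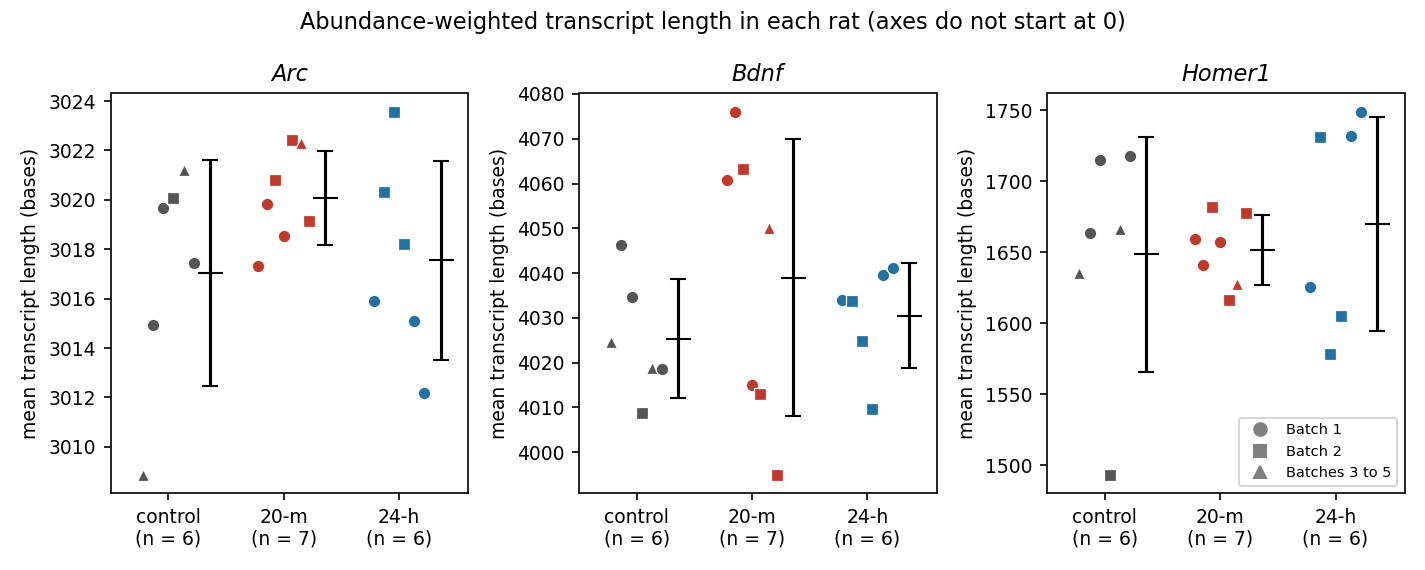
Abundance-weighted mean transcript length in bases (vertical axes, not starting at 0) of each gene in each rat, by group, with marker shape for the batch and bars for the mean ± SD. The groups overlap for all 3 genes, and control rat 25 has the shortest Homer1 length, 1493 bases.

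Animals of a group differed in these genes, so the deviations of each rat from its group and batch were compared between genes. No pair of the 3 genes passed the test. Pearson's r of the residuals of log2 CPM over 19 rats was -0.34 between Arc and Bdnf, -0.22 between Arc and Homer1 and -0.17 between Bdnf and Homer1. The same was computed against 10 early response genes that the study names by identifier and had chosen on these same rats, which makes 33 pairs in all with Benjamini-Hochberg adjustment over them.

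Arc followed Fos most closely among these named genes. The pair had a Pearson's r of 0.812, with a permutation p = 0.00017 that became 0.00561 after adjustment. Spearman's rho for the pair was 0.726, with a permutation p = 0.00167 that became 0.0434, and Fos ranked 5th among 13907 genes by likeness to Arc. Next came Sik1, a salt-inducible kinase, with r = 0.684, rho = 0.579 and a permutation p = 0.00301 for r (adjusted p = 0.0259), and Dusp1, a phosphatase of MAP kinases, with r = 0.648, rho = 0.623 and a permutation p = 0.00396 for r (adjusted p = 0.0261). The rho of Sik1 and of Dusp1 did not pass (adjusted p = 0.109 and 0.0668 by permutation). After removal of the 2 rats farthest from the median of the Arc residuals, r was 0.684 for Fos, 0.556 for Sik1 and 0.388 for Dusp1. None of these passed adjustment by the permutation test (adjusted p = 0.218 for Fos). The removal also narrows the range of Arc and leaves fewer rats, so how far these relations rest on those rats cannot be told.

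For Bdnf and Homer1 no positive relation passed. The named genes most like Bdnf were Btg2 (r = 0.279), Klf2 (r = 0.256) and Ccn1 (r = 0.121), and those most like Homer1 were Atf3 (r = 0.302), Apold1 (r = 0.063) and Klf4 (r = 0.048), and none of the 6 passed. Homer1 ran opposite to Btg2, an antiproliferative gene, with r = -0.705 and a permutation p = 0.00314 for r (adjusted p = 0.0259). The rho of Btg2 was -0.679 and did not pass (adjusted p = 0.0570 by permutation). The transcription factor Klf2 also ran opposite, with r = -0.692 and a permutation p = 0.00138 for r (adjusted p = 0.0228). Its rho was -0.674 (adjusted p = 0.0434 by permutation). By r with Homer1, Btg2 ranked 13672nd and Klf2 13617th of 13907 genes, so other genes ran more opposite. Of all genes, 8.99% had an r above 0.5 with Homer1. Without the 2 rats farthest from the median of the Homer1 residuals, r was -0.634 for Btg2 and -0.494 for Klf2. The permutation test no longer passed (adjusted p = 0.250 for both). On log2(TPM + 1), r was -0.452 for Btg2 and -0.439 for Klf2, and neither passed the permutation test (adjusted p = 0.217 and 0.136), while the 3 Arc pairs did. With group alone removed, Btg2 did not pass either (r = -0.625, permutation test, adjusted p = 0.0733). All of these genes were read from the same libraries.

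**Figure D4:**
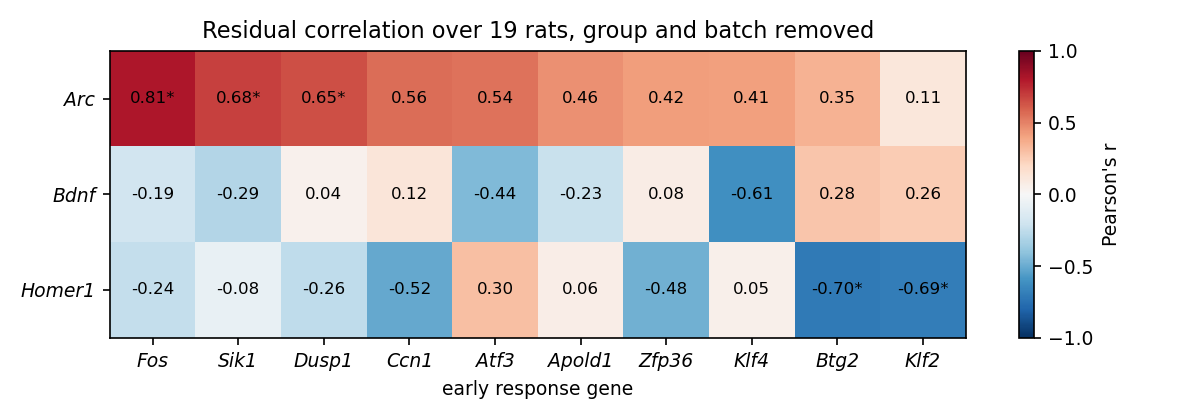
Pearson's r (colour and printed value) over 19 rats between the residuals of log2 CPM of Arc, Bdnf and Homer1 (rows) and of 10 early response genes (columns), after removal of group and batch. Stars mark the 5 pairs whose permutation p passed adjustment over 33 pairs: Arc with Fos, Sik1 and Dusp1, and Homer1 with Btg2 and Klf2.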

How the data were processed

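Per the labels and the methods of the study, reads from poly(A) libraries were trimmed with AdapterRemoval 2, mapped with STAR and quantified with RSEM on rat genome Rnor 6.0 (annotation release 93). For STAR and RSEM no source used here gives a version. The authors deposited, per library and gene, the expected counts that RSEM estimated from the mapped reads, which are not normalized (estimated counts). They also hold TPM, which the authors obtained from RSEM, along with transcript length, the posterior SD of the count and credibility bounds of the TPM. The posterior SD was 0 for Arc, Bdnf and Homer1 in all libraries.

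Expected counts were rounded and the runs of a rat summed, while TPM were averaged over runs. Genes were filtered with filterByExpr (minimum count 10, minimum total 15), which left 13908 genes including all 3 named here. The main test was the quasi-likelihood test of edgeR 4.0.16 in R 4.3.3 with TMM scaling, group and batch as terms (batches 3 to 5 as 1 level) and 14 residual degrees of freedom. p-values were adjusted by Benjamini-Hochberg over all genes tested, and a gene was called where the fold exceeded 1.5 with p under 0.05 after adjustment. DESeq2 1.42.0, limma 3.58.1 (voom, or log2(TPM + 1)) and ComBat of sva 3.50.0 were alternatives. Exact permutation tests of log2 CPM (prior count 2) and of transcript length over rats were 2-sided, and correlations of residuals used 100000 permutations within groups. The exact p-values of log2 CPM were not adjusted over genes and comparisons. The fit was tested on simulated data. Intervals and bounds cover counting error or the spread between rats as stated.

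Arc, Bdnf and Homer1 were named in every comparison whatever their p, and for likeness the 3 named genes with the highest r. The genes and lists were chosen with earlier results of these data known. Lists of activity-regulated genes, neurotrophin signalling, postsynaptic partners and cell type markers were not analysed here, because they are given by symbol and the study's gene list, which pairs symbols with Ensembl identifiers, covers few of their members. Promoter sequences are RefSeq entries on GRCr8, matched by symbol for 2 of 3 genes, and no coordinates were carried between builds. Replicate numbers in the labels mark repeated runs of the same rats, not pairs of animals across groups.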

Additional observations from a re-analysis of the deposited data

Results flagged for a closer look

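Bdnf and Homer1 were flagged because the difference between the 2 times after the swim was itself tested and had an exact permutation p under 0.05, although it missed the threshold over all genes. These exact p-values were not adjusted over the genes and comparisons tested. For Bdnf the mean log2 CPM of the 20-m group exceeded that of the 24-h group by 0.50 (exact permutation p = 0.000583), with the 20-m group above and the 24-h group below the shared controls on average. For Homer1 the difference was -0.31 (exact permutation p = 0.0146), in the opposite order. Both groups are set against the same 6 controls, and the difference between the effects is the difference between the 2 groups.

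The Homer1 transcript length of control rat 25, 1493 bases, was flagged because it stood far from the other controls, the nearest of which was at 1636 bases. The gap was 0.634 of the range of the 6 controls. It was the only 1 of 18 groups of values examined, and about 1 in 20 such groups would be flagged by chance.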

How the results depend on the processing

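Under 14 alternatives and with each rat left out, the log2 fold change of Bdnf between the 20-m and the 24-h group stayed positive, from 0.44 to 0.73 (adjusted p from 0.00239 to 0.397) and from 0.42 to 0.57 with 1 rat left out (adjusted p from 0.0677 to 0.179). Its adjusted p passed under DESeq2 (0.52), under voom, ComBat and limma (0.53), without a filter on low counts (0.52) and with the replicate block (0.53). In that last setting the runs were kept as 25 libraries, the rat was the block and the 5 batches were terms. The shared replicate numbers are runs of the same rats, so the block pairs no animals. The Arc difference between the 20-m group and controls was -0.082 in batch 1 alone, where it was reversed. Genes called between the 20-m group and controls were 6, and 15 under DESeq2, 15 under ComBat, 10 without a filter, 20 with the replicate block and 0 in batch 1 alone, and from 4 to 8 with 1 rat left out. Between the 20-m and the 24-h group they were 5, and 30, 48, 9, 19 and 0 under the same alternatives in that order, and from 4 to 9 with 1 rat left out, the 9 being without rat 2 of the 20-m group. Between the 24-h group and controls no alternative gave a call. The cause of these moves was not tested.

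The length difference of Arc between the 24-h group and controls was 0.52 bases, and -0.483 in batches 1 and 2 alone and from -1.12 to 1.59 with 1 rat left out. For Homer1 between the 20-m group and controls it was 2.96 bases, and -0.519 with runs weighted equally and from -28.1 to 16.8 with 1 rat left out, the lowest without control rat 25. For Homer1 between the 24-h group and controls it was 21.6 bases, and from -9.51 to 39.9 with 1 rat left out, the lowest again without control rat 25. For Arc, the difference between the 20-m group and controls ran from 1.40 to 3.87 bases (exact permutation p = 0.0492 without control rat 27), and that between the 20-m and the 24-h group from 1.45 to 3.72 bases (exact permutation p = 0.0278 without rat 15 of the 24-h group). The 5 correlated pairs became 3 on log2(TPM + 1), where both Homer1 pairs were lost, and 0 without the 2 farthest rats, and r between Arc and Bdnf was 0.0162 on log2(TPM + 1). Homer1, with at most 361 counts in a rat, had the fewest counts of the 3 genes.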

Other observations

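The level of each gene relative to Fos in the same rat was examined after the data had been seen. The log2 ratio of Arc to Fos CPM was 2.50 ± 0.243 (SD, n = 7) in the 20-m group and 3.57 ± 0.289 (SD, n = 6) in controls, a difference of -1.07. In 7 of 7 rats of the 20-m group it was below all controls (exact permutation p = 0.000583, and p = 0.00417 within batches, each the smallest possible). The differences for the ratios of Bdnf and Homer1 to Fos were -0.96 and -1.42 (exact permutation p = 0.00117 for each), also with 7 of 7 rats below all controls. These ratios hold the difference in Fos itself, whose log2 fold change was 1.25. The study had called Fos in this comparison on these same rats. The p-values of the ratios against controls at 20 min are therefore no separate test of Arc, Bdnf or Homer1. Between the 24-h group and controls the Arc ratio differed by 0.27 (exact permutation p = 0.141), the Bdnf ratio by -0.29 (exact permutation p = 0.381) and the Homer1 ratio by 0.06 (exact permutation p = 0.825).

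In the 3 rats sequenced in 3 runs each, the coefficient of variation of TPM between runs was 5.65% to 10.96% for Arc, 2.91% to 12.7% for Bdnf and 7.23% to 15.5% for Homer1. Between rats of a group it was 21.9% to 28.2% for Arc, 7.74% to 17.7% for Bdnf and 10.03% to 17.4% for Homer1. A single run held 1614506 to 3937452 counts, against 6217600 to 9032924 for a whole rat. The values between runs and between rats are therefore not at like depth. No rat of the 24-h group had repeated runs.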
